A study of Mus musculus with 3 samples.

Results

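The 9 genes described here are the vascular endothelial growth factor (VEGF) ligands *Vegfa*, *Vegfb*, *Vegfc* and *Pgf*, the receptors *Kdr*, *Flt1* and *Flt4*, and the coreceptors *Nrp1* and *Nrp2*. They were taken by gene symbol from the 32285 genes counted in 3 single-cell RNA-seq libraries of mouse ascending aorta, and all 9 were found in each library. No measured value served as a criterion, but the 9 genes were chosen with earlier results of these data known. Ligands were described by the cells that carried their transcripts, and receptors by the cells that could receive the signal, with the endothelial cells (ECs) of the aortic lumen, of capillaries and of lymphatic vessels kept apart.

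Each library was made from the pooled ascending aortas of male C57BL/6J mice aged 45 days. The WT library came from wild-type littermates. The mgR library came from mice homozygous for mgR, a hypomorphic allele of the fibrillin-1 gene *Fbn1* that serves as a model of Marfan syndrome. The mgR-LOS library came from mgR mice given losartan, a blocker of the angiotensin II type 1 receptor, at 0.6 g/L in the drinking water from day 16. A vehicle arm is mentioned in the labels, but whether the mgR library belongs to it is not given there. By the study's methods, mutant mice for ex vivo work were selected after echocardiography, so the mutant libraries stand for selected animals. Because each group is 1 library, no test between groups was possible, and every interval below is an exact 95% interval for counting error alone, without the spread between mice.

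The VEGF ligands are secreted dimers that act on receptor tyrosine kinases of the cell surface. VEGF-A binds the receptors made by *Kdr* (VEGFR2), which carries most of the growth and permeability signal in blood vessel endothelium, and by *Flt1* (VEGFR1), which binds VEGF-A tightly, signals weakly and can act as a decoy. VEGF-B and placental growth factor (*Pgf*) bind VEGFR1 only, and VEGF-C is the main ligand of *Flt4* (VEGFR3), the receptor that lymphatic endothelium depends on. Neuropilins 1 and 2 have no kinase of their own. They hold VEGFs beside the receptors and also bind class 3 semaphorins, which signal through plexins.

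The 3 libraries held 7858 (WT), 10657 (mgR) and 14663 (mgR-LOS) barcodes, of which 5361, 8076 and 12721 passed the filter on detected genes and mitochondrial transcripts. The barcodes that passed carried medians of 13636, 12410.5 and 8334 unique molecular identifiers (UMIs, 1 for each captured transcript molecule), so the mgR-LOS barcodes were the shallowest. A doublet caller marked 4.29%, 6.46% and 10.2% of them, and the marked barcodes were kept. These shares were set beforehand, at 0.8% per 1000 kept barcodes. They follow from library size and do not measure how many doublets a library held. Between 11 and 34 barcode sequences were shared by each pair of libraries. *Fbn1* stood at 361 CPM (its share of all UMIs, times 1000000) in WT, 150.1 in mgR and 116.7 in mgR-LOS, which goes with the labels. Clustering without the 9 genes and *Fbn1* gave 20 clusters, and 18 of them took a name from marker lists. Melanocyte genes led 1 of these (*Dct*, *Pmel*, *Tyrp1* and *Mlana*), in which the Schwann cell marker *Cdh19* was also raised. It is called the *Dct* cluster below and held 13, 24 and 36 barcodes. Smooth muscle cell (SMC)-like barcodes numbered 3616, 3063 and 7780 in WT, mgR and mgR-LOS, fibroblast-like barcodes 1399, 2622 and 3692, macrophage-like barcodes 99, 1258 and 743, and EC-like barcodes 114, 231 and 197. These are 3′-end counts, so levels of different genes are not compared, and a level below is the CPM of all UMIs of the named cells.

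EC-like barcodes were gated on marker lists that hold none of the 9 genes. The gates held 38 luminal, 13 capillary and 20 lymphatic EC-like barcodes in the WT library. For mgR these numbers were 95, 30 and 68, and for mgR-LOS 81, 23 and 30, besides 8, 9 and 17 valve or endocardial EC-like barcodes over the 3 libraries. In WT, mgR and mgR-LOS, *Cytl1* stood at 5582, 3120 and 2925 CPM in luminal EC-like cells. *Gpihbp1* stood at 1441, 1568 and 1698 CPM in capillary EC-like cells. *Prox1* stood at 359, 604 and 564 CPM in lymphatic EC-like cells. These genes are in the lists that set the gates, so their levels follow from the gating and are no check of it. Levels of the other genes in the lists are not given here. Lymphatic EC-like cells made up 17.5% of the EC-like barcodes in WT, 29.4% in mgR and 15.2% in mgR-LOS, so values for EC-like cells as a whole move with this share. The number of barcodes near the threshold was 9 inside and 15 outside for the luminal gate, and 10 inside and 9 outside for the lymphatic gate.

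Among the ligands, *Vegfa*, the main angiogenic factor of the family, was carried by fibroblast-like, macrophage-like and SMC-like cells. In fibroblast-like cells *Vegfa* stood at 45.1 CPM in WT, 44.4 in mgR and 34.8 in mgR-LOS. In SMC-like cells it stood at 9.79, 21.1 and 11.2 CPM, below fibroblast-like cells in all 3 libraries. In macrophage-like cells *Vegfa* stood at 21.4, 75.0 and 30.6 CPM, and only in mgR was this above the fibroblast-like level. EC-like cells held 19.0, 19.5 and 17.3 CPM. In mgR, neutrophil-like cells also carried *Vegfa*, at 107 CPM (66.8 to 161) from 22 UMIs, which is not apart from the macrophage-like level.

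*Vegfb*, a ligand of VEGFR1 linked to fat handling in muscle and heart, was carried by both large classes. *Vegfb* stood at 36.1, 33.5 and 39.1 CPM in SMC-like cells and at 27.5, 29.0 and 30.2 CPM in fibroblast-like cells in WT, mgR and mgR-LOS. SMC-like cells, which were the most numerous and had the higher level of these classes, supplied 78.9%, 54.8% and 69.1% of all *Vegfb* UMIs. *Vegfc*, the lymphatic growth factor, stood at 32.7, 34.9 and 31.5 CPM in fibroblast-like cells and at 6.74, 10.9 and 10.7 CPM in SMC-like cells. Macrophage-like cells held 1.07 to 2.53 CPM of *Vegfc*. In the luminal EC-like cells *Vegfc* stood at 34.8, 52.6 and 16.3 CPM, which rests on 11, 38 and 10 UMIs.

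*Pgf*, the placental growth factor, stood at 18.1, 15.5 and 12.6 CPM in fibroblast-like cells and at 2.43, 9.03 and 3.59 CPM in SMC-like cells. Its level in EC-like cells was 29.1, 40.1 and 31.9 CPM. Lymphatic EC-like cells held 10 of 26 of these UMIs in WT, 40 of 76 in mgR and 23 of 48 in mgR-LOS, at 71.8, 66.7 and 96.0 CPM. In capillary EC-like cells *Pgf* gave 9 UMIs in WT, 4 in mgR and 1 in mgR-LOS, that is 103, 18.3 and 6.02 CPM. Luminal EC-like cells gave 0, 16 and 3 *Pgf* UMIs, and a count of 0 there allows up to 9.49 CPM by the floor of 3 counts. Over all kept cells, fibroblast-like cells supplied 64.7%, 47.7% and 54.5% of *Pgf* UMIs, and SMC-like cells 28.7%, 40.0% and 33.6%.

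**Figure D1:**
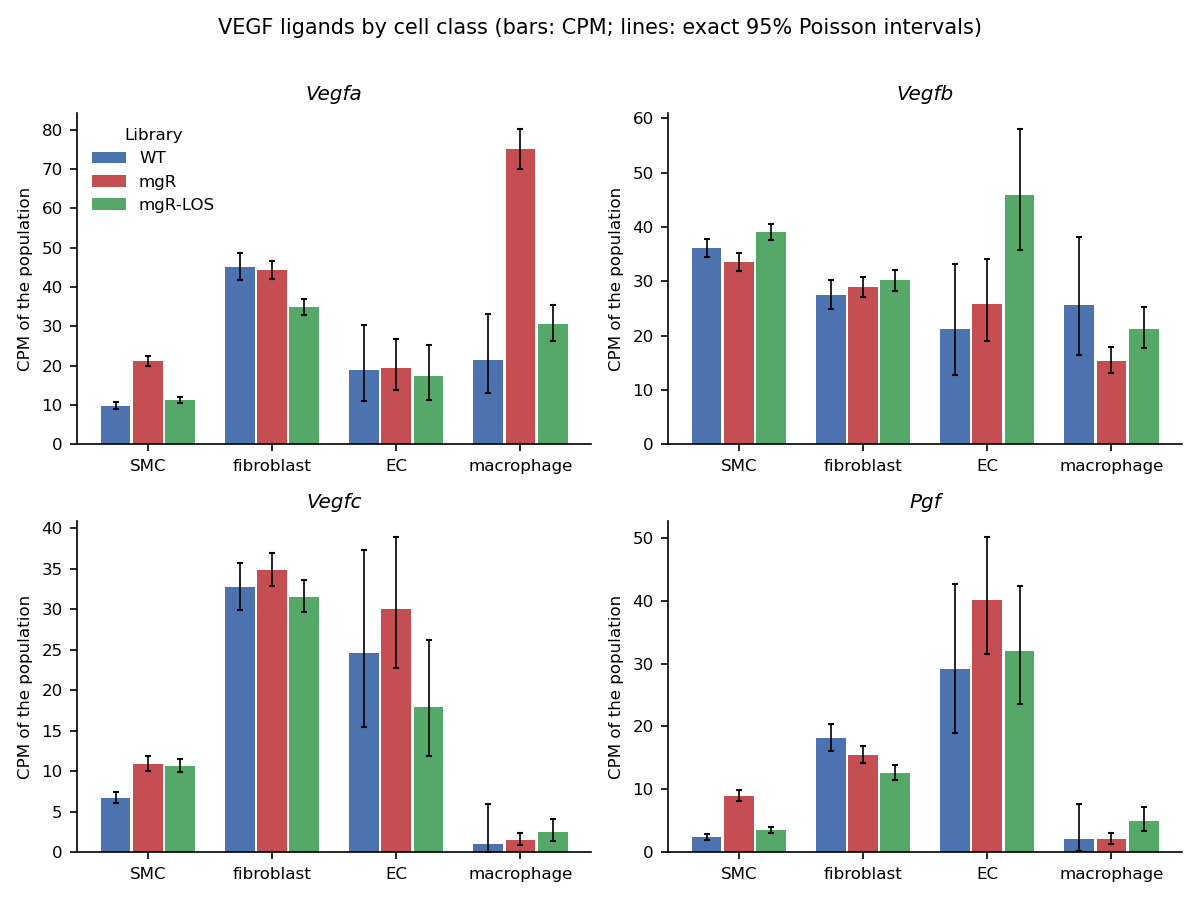
Level of the 4 ligands in SMC-like, fibroblast-like, EC-like and macrophage-like cells. Bars give CPM of all UMIs of the class in the WT, mgR and mgR-LOS libraries, and lines give exact 95% Poisson intervals. The macrophage-like *Vegfa* bar of mgR, at 75.0 CPM, stands above the other *Vegfa* bars, and *Vegfc* is near 0 in macrophage-like cells.

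The source of a ligand depends on both its level and the number of cells. Of all *Vegfa* UMIs, fibroblast-like cells held 55.4% in WT, 41.7% in mgR and 52.5% in mgR-LOS, and SMC-like cells held 39.7%, 28.6% and 36.7%. Macrophage-like cells held 1.6%, 23.7% and 8.5% of *Vegfa* UMIs, while they made up 1.8%, 15.6% and 5.8% of the kept barcodes. With each class of at least 20 barcodes in a library weighted equally, the macrophage-like share of *Vegfa* was 11.7%, 22.2% and 25.5%. The classes that entered differed between libraries, so these shares are not compared between them. Neutrophil-like and B cell-like cells, for example, entered only in mgR. *Vegfc* UMIs came from fibroblast-like cells at 57.7%, 63.9% and 55.9% and from SMC-like cells at 39.3%, 28.9% and 41.2%. A share therefore moves with the number of barcodes of a class, and how well each cell type was recovered was not measured here.

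The 4 fibroblast-like clusters differed in which ligand they carried. They are named here by a leading gene, *Gdf10*, *Inmt*, *Chad* or *Pi16*. *Vegfa* had its highest values in the *Pi16* cluster, at 67.6, 68.6 and 57.9 CPM in WT, mgR and mgR-LOS, and stood at 25.9, 35.8 and 29.4 CPM in the *Gdf10* cluster. *Vegfc* showed the reverse placement, with 13.8, 7.99 and 11.5 CPM in the *Pi16* cluster and 38.8, 42.4 and 33.6 CPM in the *Gdf10* cluster. The intervals of these 2 clusters did not overlap in any library for either gene. *Pgf* stood at 32.1, 28.2 and 17.9 CPM in the *Inmt* cluster and at 6.64, 8.68 and 12.3 CPM in the *Gdf10* cluster.

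Among the receptors, *Kdr* separated capillary and lymphatic EC-like cells from those of the lumen. In capillary EC-like cells *Kdr* stood at 743 CPM (574 to 947) in WT, 669 (565 to 787) in mgR and 518 (414 to 639) in mgR-LOS. In lymphatic EC-like cells it stood at 459.8, 606 and 447 CPM. In luminal EC-like cells *Kdr* stood at only 12.7, 34.6 and 16.3 CPM, from 4, 25 and 10 UMIs. The capillary level was 58.7-fold (21.9 to 222), 19.3-fold (12.6 to 30.8) and 31.8-fold (16.5 to 68.8) the luminal level. The WT fold depends on the gate: with a gate on the number of markers, *Kdr* stood at 41.9 CPM in luminal and 706 CPM in capillary EC-like cells of WT. Capillary and lymphatic EC-like cells were apart in WT, with a lymphatic-to-capillary ratio of 0.619 (0.431 to 0.887), and were not apart in mgR, at 0.905 (0.745 to 1.10), or in mgR-LOS, at 0.863 (0.644 to 1.16).

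Mesothelial-like cells, the serosal lining cells of the outer surface, also carried *Kdr*. Their level was 423 CPM in WT, 408 in mgR and 286 in mgR-LOS, from 46, 156 and 44 UMIs in 11, 30 and 20 barcodes. The summed EC marker list stood at 313, 243 and 241 CPM in these cells, and *Flt1* gave 0, 1 and 0 UMIs there. Called doublets were 16.4% of the mesothelial-like cluster, and their part in the *Kdr* level was not tested. By contrast, SMC-like cells held 0.174 to 0.258 CPM of *Kdr* and fibroblast-like cells 1.81 to 2.45 CPM. Of all *Kdr* UMIs, EC-like cells held 65.9%, 62.4% and 72.1% and mesothelial-like cells 15.9%, 16.3% and 9.4%.

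*Flt1* was highest in capillary EC-like cells, at 1429 CPM (1189.7 to 1703) in WT, 798 (684 to 926) in mgR and 1209.9 (1048 to 1389) in mgR-LOS. Luminal EC-like cells held 149, 227 and 244 CPM of *Flt1*, so the capillary level was 9.61-fold, 3.51-fold and 4.96-fold the luminal level. Lymphatic EC-like cells gave 0, 12 and 3 *Flt1* UMIs against 125, 174 and 201 in capillary EC-like cells. With EC clusters in place of the gate, which hold more barcodes, the lymphatic level of *Flt1* was 0, 52.7 and 91.1 CPM. Valve or endocardial EC-like cells carried *Flt1* at 983, 485 and 832 CPM, from 8, 9 and 17 barcodes. *Flt1* was also measured outside the endothelium, at 18.6, 27.7 and 23.2 CPM in SMC-like cells and at 24.3, 28.9 and 23.4 CPM in fibroblast-like cells. Since those cells were many, they held 54.7%, 45.1% and 53.1% (SMC-like) and 21.6%, 32.6% and 24.6% (fibroblast-like) of all *Flt1* UMIs, against 22.6%, 16.9% and 19.7% for EC-like cells.

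The summed EC marker list stood at 28, 17 and 25 CPM in SMC-like cells and at 31, 38 and 32 CPM in fibroblast-like cells. Within fibroblast-like cells, *Flt1* was highest in the *Gdf10* cluster but not confined to it. It stood there at 58.7, 52.1 and 45.6 CPM, against 0, 1.66 and 4.27 CPM in the *Pi16* cluster, so it was not spread evenly over the class. *Kdr* in the *Gdf10* cluster was 1.04, 0.826 and 1.40 CPM. Among SMC-like clusters, *Flt1* stood at 14.6, 16.7 and 19.99 CPM in the *Sost* cluster and at 28.4, 45.7 and 30.7 CPM in the *Tnnt2* cluster.

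*Flt4* was highest in lymphatic EC-like cells. It stood at 747 CPM (611 to 905) in WT, 796 (726 to 871) in mgR and 751.5 (646 to 870) in mgR-LOS in lymphatic EC-like cells. Capillary EC-like cells held 45.7, 36.7 and 36.1 CPM of *Flt4*, and luminal EC-like cells 15.8, 16.6 and 26.0 CPM, which were not apart from one another in any library. The lymphatic level was 47.2-fold, 47.9-fold and 28.9-fold the luminal level, and SMC-like, fibroblast-like and macrophage-like cells held at most 0.629 CPM. EC-like cells held 89.8%, 83.6% and 91.1% of all *Flt4* UMIs.

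*Kdr* and *Flt1* lie on the same chromosome and strand but are not neighbours. In the GENCODE vM21 annotation of GRCm38, *Kdr* spans chr5:75932827-75978458 and *Flt1* spans chr5:147561604-147726011, both on the minus strand, and no other annotated gene overlaps either. Their promoters are shown because these receptors divide the EC gates differently: both were high in capillary EC-like cells, while in lymphatic EC-like cells *Kdr* was at 0.619 to 0.905 of its capillary level and *Flt1* near 0 by the gate. The sequences are from RefSeq on GRCm38.p6, minus strand, up to 250 bases before the annotated start. Capitals mark GGAA or TTCC, the core letters bound by ETS factors, a family that includes regulators of endothelial genes.
Kdr, chr5:75978459-75978705: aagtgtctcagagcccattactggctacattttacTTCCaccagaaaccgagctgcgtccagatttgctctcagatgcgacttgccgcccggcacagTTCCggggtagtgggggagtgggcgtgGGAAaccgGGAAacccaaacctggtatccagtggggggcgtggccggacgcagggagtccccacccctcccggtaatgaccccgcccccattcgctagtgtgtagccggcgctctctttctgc
Flt1, chr5:147726012-147726261: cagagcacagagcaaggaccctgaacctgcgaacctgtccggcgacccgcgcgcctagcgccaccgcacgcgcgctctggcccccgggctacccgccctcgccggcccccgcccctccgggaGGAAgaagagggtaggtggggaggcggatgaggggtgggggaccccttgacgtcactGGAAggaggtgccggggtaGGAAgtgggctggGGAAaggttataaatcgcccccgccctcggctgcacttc
Each window holds 4 matches, at 215, 153, 126 and 118 bases before the start for *Kdr* and at 128, 71, 52 and 39 bases for *Flt1*. These positions count from the RefSeq start, and the 3 *Kdr* bases next to it, which overlap an annotated exon, are not printed. The letters are common: 93.4% of 32851 mouse promoters of this length hold at least 1 match, with a median of 3. The hypoxia core ACGTG or CACGT, found in 16.6% of promoters, was in neither window.

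The coreceptor *Nrp1* was carried by luminal and capillary EC-like, fibroblast-like and macrophage-like cells. In capillary EC-like cells it stood at 617, 601 and 529.7 CPM in WT, mgR and mgR-LOS, and in luminal EC-like cells at 351 (289 to 423), 385 (341 to 433) and 841 (770 to 916) CPM. Lymphatic EC-like cells gave 0, 3 and 1 *Nrp1* UMIs. Valve or endocardial EC-like cells gave 8, 2 and 5 by the gate, at 0.233 (0.0983 to 0.476), 0.0504 (0.00607 to 0.184) and 0.0346 (0.0112 to 0.0812) of the luminal level. In the EC cluster led by *Hapln1*, named valve or endocardial EC, *Nrp1* stood at 220, 316 and 511 CPM. This cluster also held luminal-gated barcodes. The capillary level exceeded the luminal level in WT, by 1.76-fold (1.25 to 2.45), and in mgR, by 1.56-fold (1.26 to 1.93), and in mgR-LOS it was 0.630-fold (0.497 to 0.791). Macrophage-like cells held 141, 156 and 143 CPM of *Nrp1*, and fibroblast-like cells 119.5, 221 and 206 CPM. Fibroblast-like cells supplied 63.3%, 66.7% and 65.3% of all *Nrp1* UMIs.

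*Nrp2*, the neuropilin of veins and lymphatics, had the opposite placement between luminal and lymphatic EC-like cells, while capillary EC-like cells carried both neuropilins. *Nrp2* stood at 503, 622 and 547 CPM in lymphatic EC-like cells and at 252, 422 and 277 CPM in capillary EC-like cells. Luminal EC-like cells gave 0, 10 and 3 *Nrp2* UMIs. The lymphatic level was 2.0-fold (1.22 to 3.39), 1.48-fold (1.17 to 1.87) and 1.98-fold (1.40 to 2.83) the capillary level. Macrophage-like cells carried *Nrp2* at 88.9, 63.7 and 70.1 CPM, and the *Dct* cluster at 122, 138 and 84.6 CPM from 7, 20 and 12 UMIs. *Nrp2* is overlapped in the annotation by an antisense gene, *Gm29083*, and by *Gm37121* on its own strand, and *Nrp1* by *Mir1903* on its own strand.

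**Figure D2:**
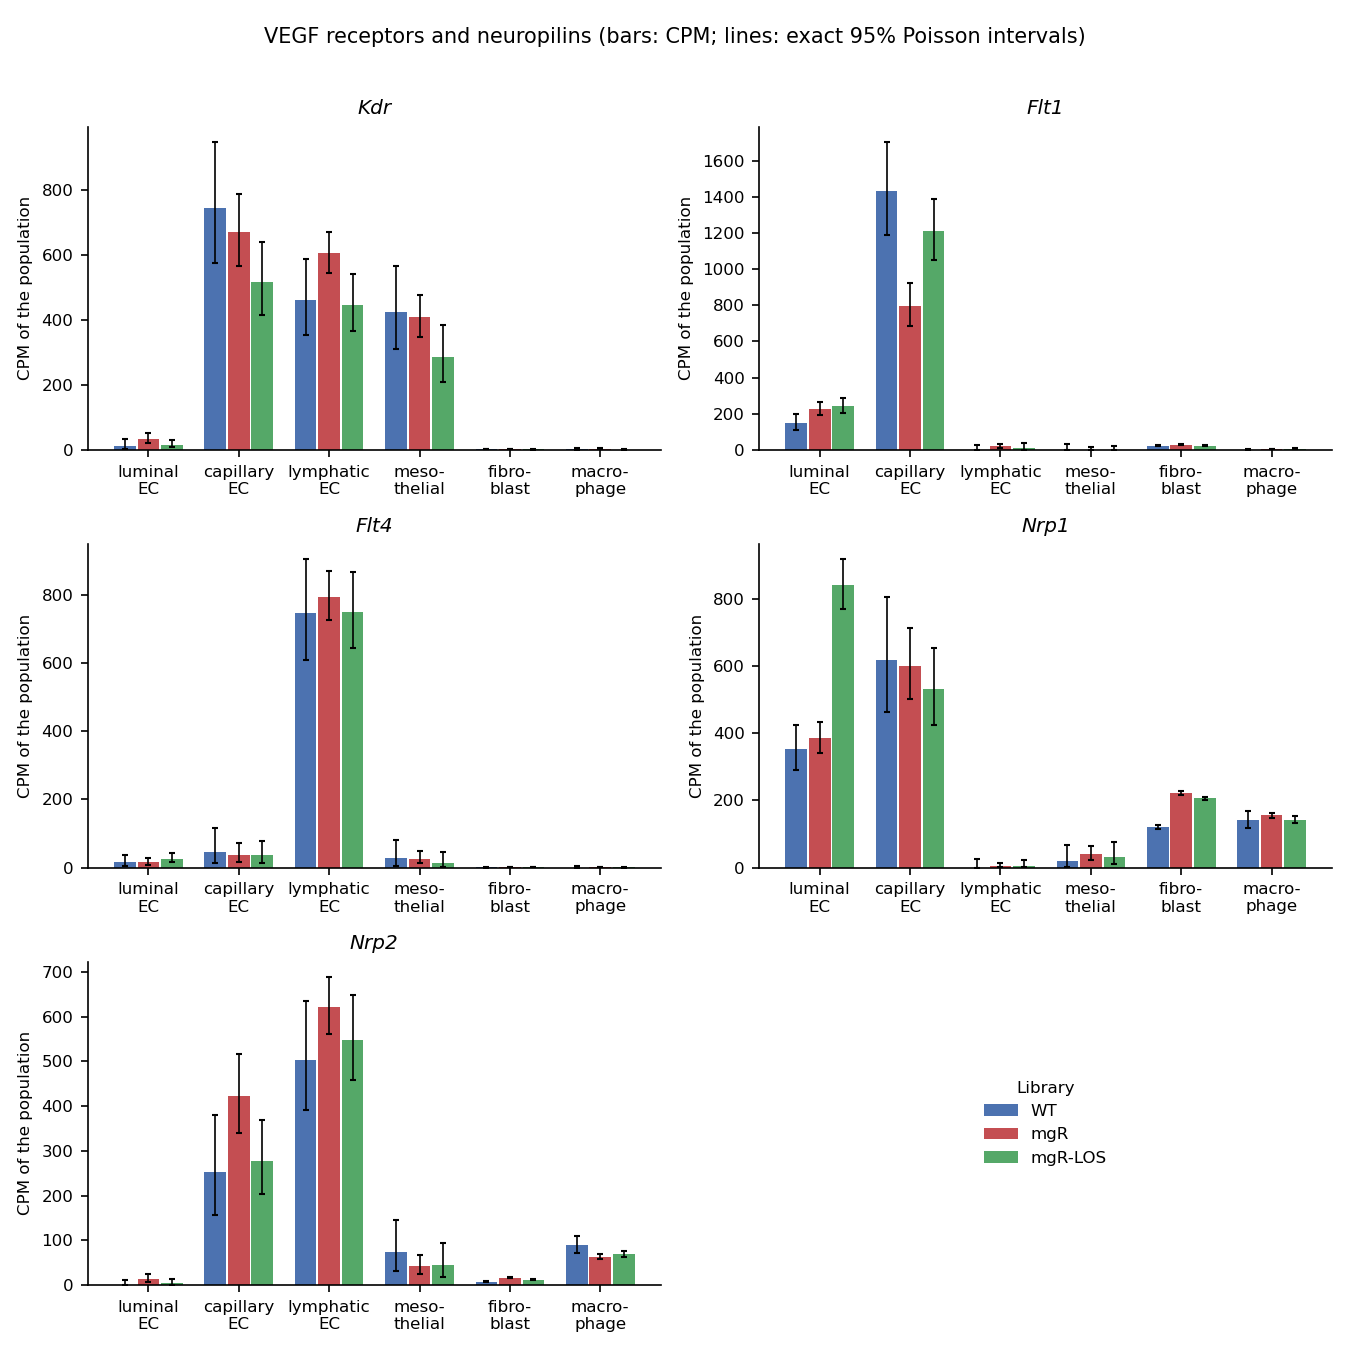
Level of the 3 receptors and 2 neuropilins in luminal, capillary and lymphatic EC-like, mesothelial-like, fibroblast-like and macrophage-like cells. Bars give CPM of all UMIs of the population in each library, and lines give exact 95% Poisson intervals. *Flt4* stands highest in lymphatic EC-like cells and *Flt1* in capillary EC-like cells. The luminal *Nrp1* bar of mgR-LOS, at 841 CPM, is above those of WT and mgR.

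Shares of barcodes with a *Kdr* UMI were compared after each barcode was thinned to 1000 UMIs. *Kdr* was then detected in 46.2%, 46.7% and 26.1% of capillary EC-like barcodes and in 25%, 41.2% and 36.7% of lymphatic EC-like barcodes of WT, mgR and mgR-LOS. No order of these gates is read from the shares, since in mgR-LOS the levels have the opposite order and were not apart. In SMC-like barcodes, which serve as a measure of background for *Kdr*, the share was 0.0277%, 0.0327% and 0.0514%. The median depths before thinning were 5563, 5791.5 and 8102 UMIs in capillary EC-like, 5596, 8074 and 5188.5 in lymphatic EC-like and 14437.5, 15346 and 8531 in SMC-like barcodes. Before thinning, *Kdr* was detected in 76.9%, 80.0% and 91.3% of capillary EC-like and in 0.194%, 0.294% and 0.167% of SMC-like barcodes. Luminal EC-like barcodes held a *Kdr* UMI in 10.5%, 11.6% and 7.41% before thinning. Thinning left none in 38, 94 and 81 barcodes, which allows up to 7.89%, 3.19% and 3.70% with a UMI at that depth only.

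Receptors and coreceptors were often detected in the same barcode, without thinning. *Kdr* and *Flt4* were both detected in 15 of 20 lymphatic EC-like barcodes in WT, 64 of 68 in mgR and 22 of 30 in mgR-LOS, against 0 of 38, 3 of 95 and 2 of 81 luminal EC-like barcodes. *Flt4* and *Nrp2* were both detected in 15 of 20, 61 of 68 and 18 of 30 lymphatic EC-like barcodes. *Kdr* and *Flt1* were both detected in 9 of 13, 23 of 30 and 19 of 23 capillary EC-like barcodes. *Flt1* and *Nrp1* were both detected in 10 of 13, 25 of 30 and 20 of 23 capillary EC-like barcodes and in 10 of 38, 40 of 95 and 33 of 81 luminal EC-like barcodes. *Kdr* and *Flt1* together were found in 3 of 38, 9 of 95 and 4 of 81 luminal EC-like barcodes. Without thinning, these counts move with the depth of the barcodes.

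The comparison of mgR with WT asks which transcripts of the family differ in the mutant aorta. A gene was tested in a class if it reached 10 CPM in either library and 20 UMIs in both together, and it passed if its ratio was at least 1.5-fold in either direction with an interval that left out 1. In SMC-like cells 5 of the 9 genes were tested and 3 passed, beside 8.95% of 7611 genes tested. All 3 were higher in mgR, where 4.85% of the tested genes were. In fibroblast-like cells 2 of 7 tested passed, beside 11.1% of all genes, and in macrophage-like cells 2 of 4, beside 13.4%. In EC-like cells 3 of 9 passed, beside 10.9%. By gate, 1 of 5 passed in luminal (beside 10.5%), 2 of 4 in capillary (beside 10.7%) and 0 of 5 in lymphatic EC-like cells (beside 7.97%). The median log2 ratio of the tested family genes was 0.67 in SMC-like cells, where that of all genes was -0.02, and 0.09 in fibroblast-like cells, where that of all genes was 0.00. With 4 to 9 genes a class, these counts describe the family and do not set it apart from other genes.

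In SMC-like cells *Vegfa* was higher in mgR, at 21.1 CPM from 1008 UMIs against 9.79 CPM from 507 UMIs in WT, a ratio of 2.16 (1.94 to 2.40). All 4 SMC-like clusters had a *Vegfa* interval in mgR above that in WT: 11.3 and 23.7 CPM in the *Xirp1* cluster, 9.32 and 21.4 in the *Sost* cluster, 9.78 and 23.5 in the *Tnnt2* cluster and 4.49 and 14.3 in the *Igfbp2* cluster, for WT and mgR. *Vegfc* was higher at 1.62-fold (1.41 to 1.86), and *Nrp1* at 1.60-fold (1.45 to 1.76). *Flt1* had a ratio of 1.49 (1.37 to 1.62), just under the limit, and *Vegfb* one of 0.929 (0.868 to 0.994). *Pgf* stood below 10 CPM in both libraries and was not tested, at 2.43 CPM in WT and 9.03 CPM in mgR, a ratio of 3.71 (3.04 to 4.56). The summed fibroblast marker list stood at 6410 CPM in WT and 7627 CPM in mgR in SMC-like cells, and the macrophage list at 9 and 29 CPM. Their part in these ratios was not tested.

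In fibroblast-like cells the 2 genes past the limit were the neuropilins, while the ligands had ratios between 0.857 and 1.07. *Nrp1* stood at 119.5 CPM in WT and 221 CPM in mgR, a ratio of 1.85 (1.76 to 1.95), and *Nrp2* at 7.66 and 16.3 CPM, a ratio of 2.13 (1.74 to 2.62). The share of fibroblast-like barcodes with an *Nrp1* UMI at 1000 UMIs was 9.72% in WT, 18.8% in mgR and 17.3% in mgR-LOS, at median depths of 11409, 12349.5 and 8284.5 UMIs before thinning. In lymphatic EC-like barcodes thinned to 1000 UMIs, no *Nrp1* UMI was left. Unthinned, the fibroblast-like shares were 57.5%, 74.6% and 64.7%.

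The *Nrp1* difference was not the same in all fibroblast-like clusters. In the *Gdf10* cluster *Nrp1* stood at 165 CPM (154 to 177) in WT and 315 CPM (306 to 324) in mgR, and in the *Inmt* cluster at 124 (112 to 136) and 232 (221 to 244). In the *Chad* cluster it stood at 83.6 (76.5 to 91.2) and 90.6 (83.1 to 98.6), and in the *Pi16* cluster at 109.5 (93.9 to 127) and 113 (104 to 121), where the intervals overlapped. *Nrp2* in the *Gdf10* cluster gave 18 UMIs in WT and 361 in mgR, or 3.74 and 24.9 CPM. The clusters held 413, 424, 437 and 125 barcodes in WT and 1061, 700, 456 and 405 in mgR, in the order *Gdf10*, *Inmt*, *Chad* and *Pi16*. The *Gdf10* cluster, where *Nrp1* was highest in every library, was thus a larger part of the class in mgR. The difference between clusters in this ratio was not tested, since each group is 1 library.

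**Figure D3:**
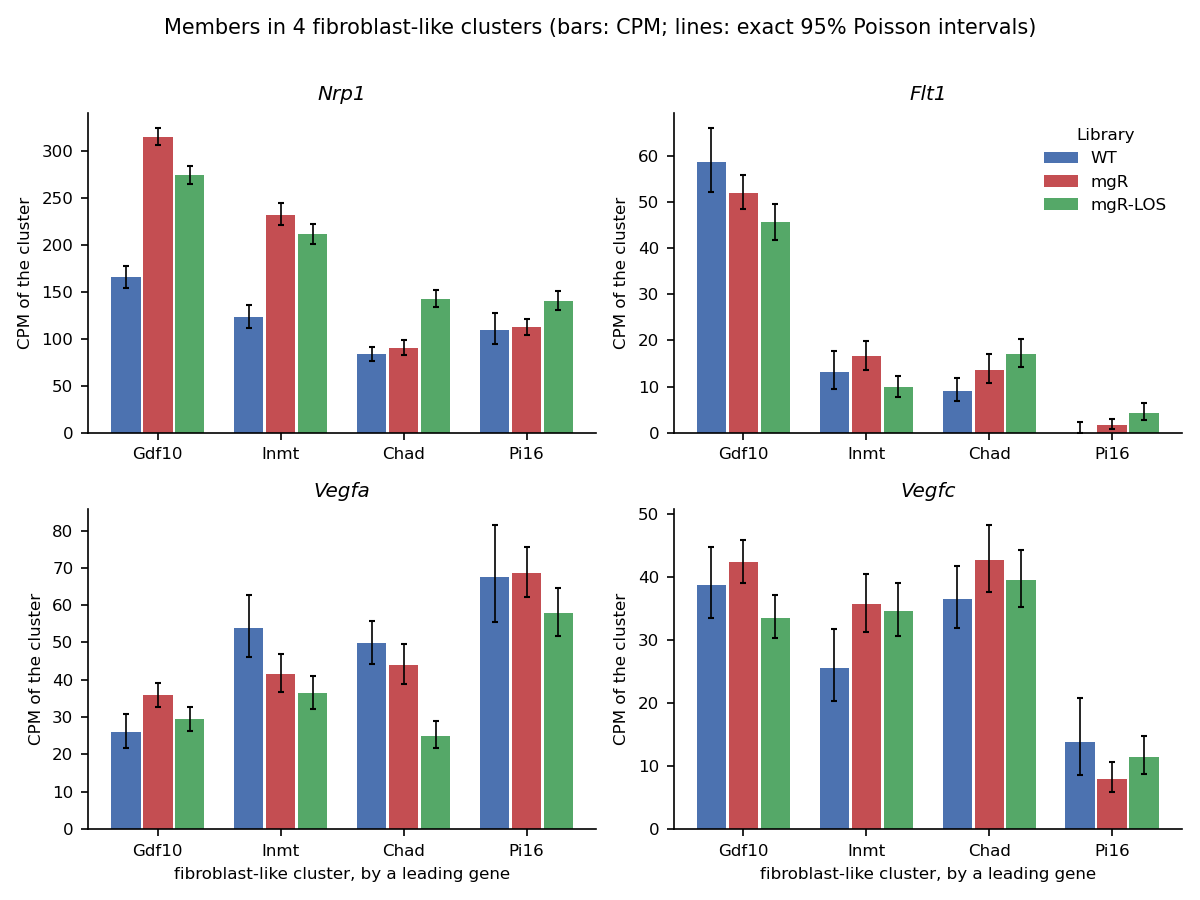
Levels of *Nrp1*, *Flt1*, *Vegfa* and *Vegfc* in the 4 fibroblast-like clusters, each named by a leading gene. Bars give CPM of all UMIs of the cluster in each library, and lines give exact 95% Poisson intervals. *Nrp1* in mgR stands above WT in the *Gdf10* and *Inmt* clusters and overlaps it in the *Chad* and *Pi16* clusters. *Flt1* stands highest in the *Gdf10* cluster.

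In macrophage-like cells *Vegfa* was higher in mgR, at 75.0 CPM from 834 UMIs in 1258 barcodes, against 21.4 CPM from 20 UMIs in 99 barcodes of WT, a ratio of 3.50 (2.25 to 5.76). *Vegfb* was lower, at 15.4 CPM against 25.7 CPM, a ratio of 0.598 (0.389 to 0.959), a call lost in 4 alternatives at 0.602 to 0.755. *Nrp1* and *Nrp2* had ratios of 1.10 (0.923 to 1.33) and 0.716 (0.570 to 0.910). The SMC marker list stood at 847 CPM in WT and 2804 CPM in mgR in these cells, and its part in the ratios was not tested.

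Finer clustering, at resolution 1.0 in place of 0.5, split the macrophage-like cells into groups with very different *Vegfa*. A monocyte- or dendritic-like cluster led by *Ccl17* and *Cd209a* held 289 barcodes in mgR and carried *Vegfa* at 233 CPM (214 to 253), which was 66.2% of the class's *Vegfa* UMIs. In WT this cluster held 11 barcodes and no *Vegfa* UMI, which allows up to 32.9 CPM. A cluster led by *Folr2* and *Ccl8*, genes of resident macrophages, carried *Vegfa* at 0, 4.20 and 1.57 CPM in WT, mgR and mgR-LOS, and *Nrp1* at 245, 359 and 307 CPM. That cluster held 66.7%, 64.1% and 69.5% of the class's *Nrp1* UMIs, so *Vegfa* and *Nrp1* lay in different myeloid clusters. In WT, 14 of the 20 *Vegfa* UMIs came from 6 barcodes of a cluster led by *Ear2* and *Retnla*. When the classes were drawn at this resolution, which leaves the monocyte- or dendritic-like cluster out of the macrophage-like class, the mgR-to-WT ratio of *Vegfa* was 1.41 (0.896 to 2.35) and did not pass.

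**Figure D4:**
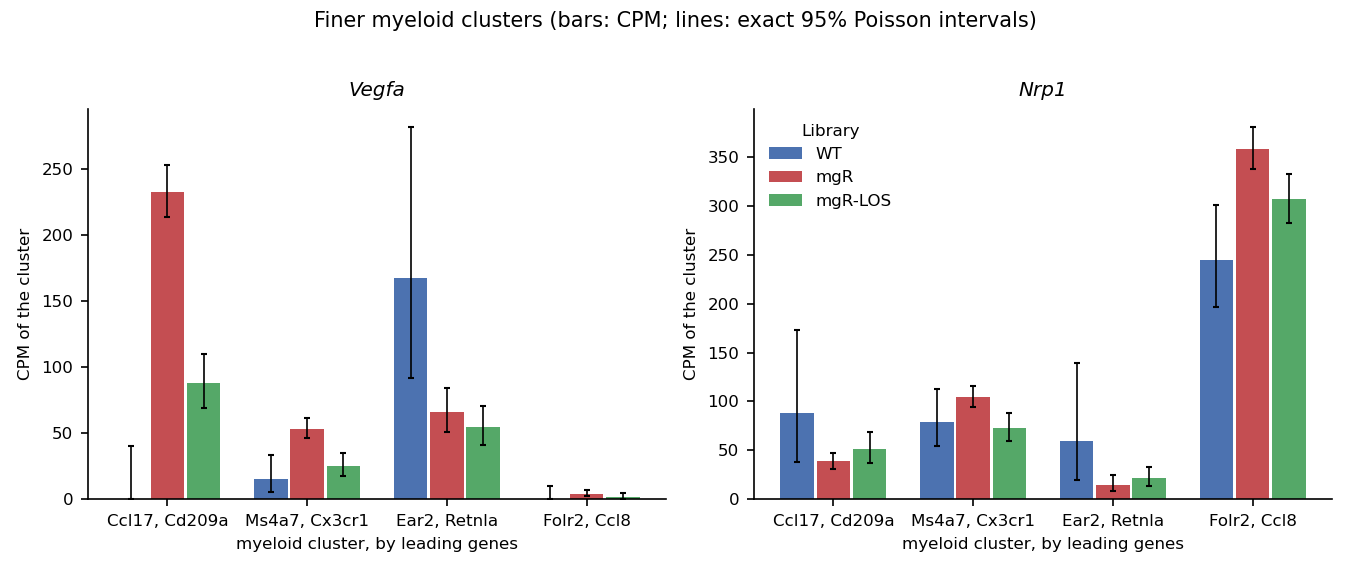
Levels of *Vegfa* and *Nrp1* in 4 finer myeloid clusters, each named by leading genes. Bars give CPM of all UMIs of the cluster in each library, and lines give exact 95% Poisson intervals. In mgR, *Vegfa* stands highest in the *Ccl17* and *Cd209a* cluster, at 233 CPM, and *Nrp1* in the *Folr2* and *Ccl8* cluster, at 359 CPM. The WT bars rest on 6 to 43 barcodes.

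In the endothelium the differences between mgR and WT depended on the gate. Over all EC-like cells *Flt1* was lower in mgR, at 261 CPM against 444 CPM, a ratio of 0.589 (0.515 to 0.673), and *Flt4* and *Nrp2* were higher, at 1.72-fold (1.43 to 2.07) and 2.13-fold (1.74 to 2.62). Within lymphatic EC-like cells *Flt4* had a ratio of 1.07 (0.860 to 1.33) and *Nrp2* one of 1.24 (0.956 to 1.62), and neither passed. With another filter on barcodes *Nrp2* passed there, at 1.65 (at most 5% mitochondrial UMIs) and 1.51 (at least 200 genes). Within capillary EC-like cells *Flt1* was lower in mgR, at 798 CPM against 1429 CPM, a ratio of 0.558 (0.441 to 0.708), while *Kdr* had a ratio of 0.901 (0.668 to 1.23). *Nrp2* was higher there, at 1.68-fold (1.04 to 2.81), from 22 UMIs in WT and 92 in mgR, a call lost in 4 alternatives at 1.40 to 1.59. In luminal EC-like cells *Flt1* was higher, at 1.53-fold (1.10 to 2.16), and *Kdr* gave 2.74 (0.945 to 10.8), which did not pass. The luminal *Flt1* ratio fell below the limit in 5 alternatives, at 1.06 to 1.45.

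In luminal EC-like cells the SMC marker list stood at 4525 CPM in WT, 2306 in mgR and 3936 in mgR-LOS, and the macrophage list at 19, 763 and 49 CPM. In capillary EC-like cells the SMC list stood at 1555, 1467 and 2059 CPM. The part of these transcripts in the EC ratios was not tested. Among the other classes compared, T or NK cell-like cells alone had a family gene past the limit, *Vegfa*, lower in mgR at 26.5 CPM from 30 UMIs against 88.4 CPM from 17 UMIs in 31 WT barcodes, a ratio of 0.299 (0.160 to 0.578), beside 13.3% of all genes tested in that class. In these cells the red cell list stood at 109 and 2112 CPM, the SMC list at 1582 and 4064, the fibroblast list at 2851 and 3972 and the EC list at 286 and 84 CPM in WT and mgR, and their part was not tested.

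The comparison of mgR-LOS with mgR asks which transcripts differ under losartan. It shares the mgR library with the comparison above, so a value that is high in mgR for any reason enters both, once as the numerator and once as the denominator. The mgR and WT files name Cell Ranger 5.0.1 and the mgR-LOS file 6.0.1, so losartan and software version cannot be told apart here. In SMC-like cells 1 of 5 tested genes passed, beside 7.94% of all genes, in fibroblast-like cells 0 of 7, beside 7.24%, in macrophage-like cells 1 of 4, beside 13.1%, and in EC-like cells 6 of 9, beside 12.9%. By gate, 3 of 7 passed in luminal (beside 13.9%), 2 of 4 in capillary (beside 11.2%) and 1 of 5 in lymphatic EC-like cells (beside 9.54%).

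*Vegfa* was the gene that passed in SMC-like cells and in macrophage-like cells, lower with losartan in both. In SMC-like cells it stood at 11.2 CPM against 21.1 CPM, a ratio of 0.529 (0.481 to 0.582). Each SMC-like cluster had a lower *Vegfa* level in mgR-LOS, at 12.6 CPM in the *Xirp1*, 8.72 in the *Sost*, 14.0 in the *Tnnt2* and 7.99 in the *Igfbp2* cluster, with intervals below those of mgR. In macrophage-like cells *Vegfa* stood at 30.6 CPM against 75.0 CPM, a ratio of 0.408 (0.345 to 0.479). The SMC marker list in these cells stood at 2804 CPM in mgR and 6375 CPM in mgR-LOS and the fibroblast list at 1007 and 1624 CPM, and their part was not tested. In the monocyte- or dendritic-like cluster it stood at 87.7 CPM (69.2 to 110) in 113 barcodes, against 233 CPM in mgR. *Pgf* in SMC-like cells, untested for its low level, had a ratio of 0.397 (0.339 to 0.465).

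Not every difference seen between mgR and WT was followed by one of the opposite direction past the limit. In SMC-like cells *Vegfc* had a mgR-LOS to mgR ratio of 0.976 (0.872 to 1.09) and *Nrp1* one of 1.24 (1.15 to 1.35). In fibroblast-like cells *Nrp1* had a ratio of 0.929 (0.899 to 0.961) and *Nrp2* one of 0.704 (0.615 to 0.805). Both were of the opposite direction but short of the limit, and *Nrp2* passed as lower in some alternatives, at 0.660 to 0.666. Set directly against WT, *Nrp1* was higher in mgR-LOS in SMC-like cells, at 1.99-fold (1.82 to 2.17), and *Vegfc* at 1.58-fold (1.39 to 1.8), beside 7.91% of all genes past the limit. In fibroblast-like cells *Nrp1* was higher in mgR-LOS than in WT, at 1.72-fold (1.63 to 1.81), beside 10.8% of all genes. In the *Chad* fibroblast-like cluster *Nrp1* stood at 143 CPM (134 to 151) in mgR-LOS, above both WT and mgR. In SMC-like cells of mgR-LOS the fibroblast marker list stood at 5493 CPM, below its 7627 CPM in mgR, and in fibroblast-like cells the SMC list stood at 7081 CPM, above its 3389 CPM in mgR. Their part in these values was not tested.

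In the luminal gate *Nrp1* was higher in mgR-LOS, at 841 CPM from 517 UMIs in 81 barcodes, against 385 CPM from 278 UMIs in 95 barcodes of mgR, a ratio of 2.18 (1.88 to 2.53). After thinning, the share of luminal EC-like barcodes with an *Nrp1* UMI was 21.1% (9.55 to 37.3) in WT, 36.2% (26.5 to 46.7) in mgR and 48.1% (36.9 to 59.5) in mgR-LOS. Median depths were 7536.5, 7464 and 5463 UMIs, and the unthinned shares 60.5%, 78.9% and 86.4%. Within the luminal gate, barcodes of the EC cluster led by *Klk10* held *Nrp1* at 101 (56.4 to 166), 259 (210 to 317) and 493 (385 to 621) CPM, and those of the cluster led by *Gdf6* and *Thbs1* at 653 (516 to 815), 610.4 (515 to 718) and 1249 (1097 to 1415) CPM. Both clusters had a *Nrp1* interval in mgR-LOS above that in mgR. Myeloid genes were 5 of the 10 leading genes of the *Klk10* cluster (*Ccl4*, *C1qb*, *Fcer1g*, *C1qc* and *Lyz2*), and their part was not tested.

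*Flt1* in luminal EC-like cells depended on how these cells were drawn. By the gate, its mgR-LOS to mgR ratio was 1.07 (0.855 to 1.35). Of the 81 gated barcodes of mgR-LOS, 25 lay in an EC cluster led by *Hapln1*, which its raised markers name valve or endocardial EC. This cluster held 8 of the 95 luminal-gated barcodes of mgR and 3 of the 38 of WT. In mgR-LOS its 25 gated barcodes carried *Flt1* at 527 CPM (434 to 634). Those of the *Klk10* and of the *Gdf6* and *Thbs1* clusters carried 125 (74.0 to 197) and 61.4 (31.7 to 107) CPM. In mgR the last 2 clusters carried *Flt1* at 213 (168 to 266) and 231.5 (174 to 301) CPM. With the *Klk10* cluster and the *Gdf6* and *Thbs1* cluster in place of the gate, *Flt1* stood at 88.8 CPM in luminal EC-like cells of mgR-LOS and the ratio was 0.404 (0.264 to 0.601), which passes as lower. Luminal *Vegfc* was lower in mgR-LOS, at 16.3 CPM from 10 UMIs against 52.6 CPM from 38 UMIs, a ratio of 0.309 (0.137 to 0.632), and luminal *Vegfb* was higher, at 2.05-fold (1.07 to 4.06). The *Vegfc* call was lost with at least 200 genes, at 0.615, and the *Vegfb* call in 4 alternatives, at 1.36 to 2.20. *Kdr* gave 0.470 (0.201 to 1.01) and did not pass, but it passed as lower in 4 alternatives, at 0.252 to 0.460.

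Over EC-like cells as a whole, *Vegfb*, *Flt1* and *Nrp1* were higher in mgR-LOS, at 1.78-fold (1.22 to 2.62), 1.52-fold (1.35 to 1.72) and 1.80-fold (1.6 to 2.03), and *Vegfc*, *Flt4* and *Nrp2* were lower, at 0.598 (0.364 to 0.961), 0.664 (0.573 to 0.767) and 0.597 (0.512 to 0.695). Of these calls, *Vegfc* was lost in 4 alternatives at 0.612 to 0.997, *Flt4* in 5 at 0.673 to 0.749, *Flt1* in 3 at 1.37 to 1.40, and *Vegfb* and *Nrp1* with barcodes counting equally, at 1.45 and 1.48. *Flt4* and *Nrp2* were highest in lymphatic EC-like cells, whose share of the class went from 29.4% to 15.2%. The part of this share in the 2 ratios was not tested. In capillary EC-like cells *Flt1* was higher in mgR-LOS, at 1209.9 CPM against 798 CPM, a ratio of 1.52 (1.23 to 1.87), and *Nrp2* was lower, at 0.656 (0.450 to 0.945). The *Flt1* ratio was below the limit in 5 alternatives, at 1.33 to 1.47, and the *Nrp2* ratio in 4, at 0.688 to 0.964. *Kdr* gave 0.773 (0.585 to 1.02) and *Nrp1* 0.882 (0.665 to 1.16). In lymphatic EC-like cells only *Vegfb* passed, higher at 2.38-fold (1.23 to 4.62) from 21 UMIs in mgR and 20 in mgR-LOS, while *Kdr*, *Flt4* and *Nrp2* gave 0.738 (0.589 to 0.917), 0.944 (0.791 to 1.12) and 0.879 (0.715 to 1.08). The SMC list stood at 1105 CPM in mgR and 4175 CPM in mgR-LOS in lymphatic EC-like cells, and its part was not tested. Mesothelial-like *Kdr* had a ratio of 0.703 (0.491 to 0.987), which is not past the limit. In the small classes *Flt1* was higher in T or NK cell-like cells, at 7.36-fold (2.42 to 29.9) from 4 UMIs in mgR and 18 in mgR-LOS, beside 18.2% of all genes, and *Vegfb* lower in the *Dct* cluster, at 0.362 (0.117 to 0.962), beside 15.9%. The SMC list stood at 4064 and 8905 CPM in T or NK cell-like cells and at 1602 and 14034 CPM in the *Dct* cluster, for mgR and mgR-LOS, and its part was not tested.

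**Figure D5:**
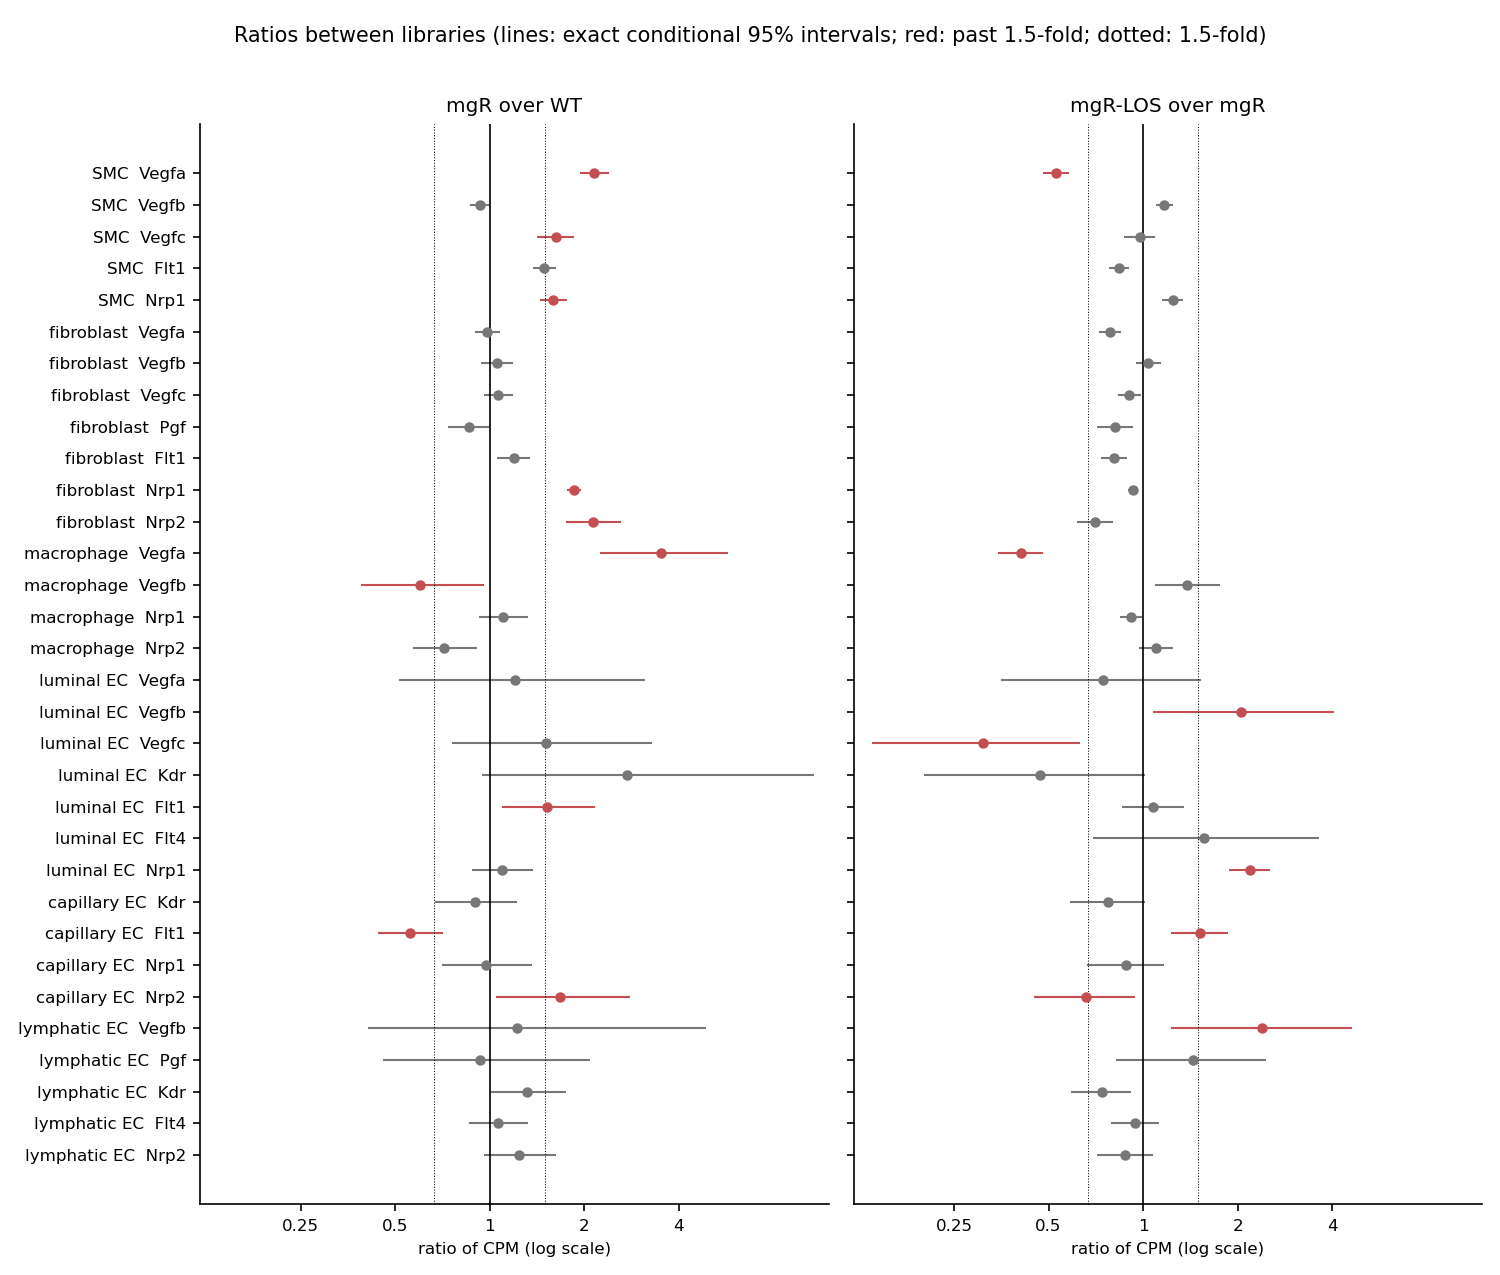
Ratio of CPM between libraries, on a log axis, for mgR over WT and mgR-LOS over mgR. Shown are the family genes tested in SMC-like, fibroblast-like, macrophage-like, and luminal, capillary and lymphatic EC-like cells. EC-like cells as a whole and the other classes are not shown. Points give the ratio, lines exact conditional 95% intervals, dotted lines the 1.5-fold limit and red the ratios past it. *Vegfa* in SMC-like and macrophage-like cells lies to the right of 1 for mgR over WT (2.16 and 3.50) and to the left for mgR-LOS over mgR (0.529 and 0.408), and the 2 comparisons share the mgR library.

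The other genes of the pathway were taken from lists of VEGF-related groups. The shares of all genes past the limit given above apply to them too, and count both directions unless stated. With few genes tested in a group, these counts do not set a group apart from other genes. Of 3 genes for other ligands and VEGF-C processing, 2 were tested in fibroblast-like cells. Both were higher in mgR, beside 11.1% of all genes past the limit. *Vegfd*, a further ligand of VEGFR3, stood at 46.8 CPM in WT, 186 in mgR and 121 in mgR-LOS, with ratios of 3.97 (3.68 to 4.29) and 0.650 (0.624 to 0.676). *Ccbe1*, which is needed for the processing of VEGF-C, stood at 18.2 and 30.4 CPM in WT and mgR, a ratio of 1.67 (1.46 to 1.91). Both genes passed in fibroblast-like cells, where *Vegfc* itself had a ratio of 1.07.

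Among the class 3 semaphorins, which share the neuropilins with the VEGFs, directions differed by class. In SMC-like cells 4 were tested and 2 were lower in mgR, beside 8.95% of all genes past the limit. *Sema3c* stood at 45.5 CPM against 94.3 CPM, a ratio of 0.483 (0.459 to 0.508). *Sema3d* stood at 27.2 against 62.8 CPM, a ratio of 0.433 (0.406 to 0.462). In fibroblast-like cells *Sema3d* was higher, at 162 against 48.7 CPM, a ratio of 3.33 (3.09 to 3.60), and lower again in mgR-LOS, at 104 CPM and 0.641 (0.613 to 0.669). In luminal EC-like cells *Sema3g* stood at 38.0, 88.7 and 21.1 CPM in WT, mgR and mgR-LOS, with ratios of 2.33 (1.25 to 4.75) and 0.238 (0.12 to 0.437). Over EC-like cells 3 of 4 tested semaphorins were higher in mgR and 3 of 4 lower in mgR-LOS. All genes past the limit there were 10.9% and 12.9%. *Sema3b* passed in the *Dct* cluster, from 3 UMIs in WT and 34 in mgR, a ratio of 4.46 (1.4 to 22.7), beside 12.2% of all genes there. Of the plexins, the partners that carry the semaphorin signal, *Plxna4* was lower in mgR in SMC-like cells, at 0.594 (0.542 to 0.650), and *Plxnd1* higher, at 1.61 (1.4 to 1.85). All 3 plexins tested in macrophage-like cells were higher in mgR-LOS than in mgR, beside 13.1% of all genes past the limit. *Plxna1* was higher at 1.67-fold, *Plxna4* at 1.82-fold and *Plxnd1* at 1.86-fold. The SMC and fibroblast lists were also higher in these mgR-LOS cells, as given with *Vegfa*, and their part was not tested.

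Of 8 genes of hypoxia sensing, between 1 and 3 passed in each large class for mgR over WT. All genes past the limit were between 8.95% (SMC-like) and 13.4% (macrophage-like). *Epas1*, which codes for the hypoxia-inducible factor HIF-2α, was higher in mgR in SMC-like cells, at 118 against 41.2 CPM, a ratio of 2.86 (2.72 to 3.00), and was the 1 of 7 tested there that passed. In fibroblast-like cells *Epas1* was higher at 1.62-fold (1.5 to 1.76), and 1 of the 8 genes tested there was lower. In macrophage-like cells 3 of 6 passed, all higher: *Hif1a*, at 147 against 73.9 CPM, a ratio of 1.99 (1.56 to 2.57), *Egln1* at 1.57-fold (1.01 to 2.57) and *Epas1* at 2.77-fold (1.06 to 10.3), the last from 4 UMIs in WT. *Arnt*, the partner of both factors, passed in the mgR-LOS to mgR comparison, lower in EC-like cells at 0.563 (0.362 to 0.860) and in lymphatic EC-like cells at 0.179 (0.0206 to 0.709). Of the other hypoxia targets, in SMC-like cells 0 of 5 tested were higher in mgR, beside 4.85% of all genes. *Adm* was lower there, at 11.9 against 30.04 CPM. In macrophage-like cells 0 of 4 passed, beside 13.4% of all genes. With 4 or 5 genes tested, a count of 0 is near these shares. In fibroblast-like cells *Adm* was higher at 2.18-fold (1.99 to 2.38) and the glucose transporter gene *Slc2a1* at 1.83-fold (1.49 to 2.28), while *Vegfa* there had a ratio of 0.983. *Bnip3*, a mitophagy gene, passed in T or NK cell-like cells, from 5 UMIs in mgR and 16 in mgR-LOS, a ratio of 5.23 (1.83 to 18.3).

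Among VEGF response genes, *Egr3*, an early transcription factor gene, was higher in mgR in SMC-like cells, at 45.2 against 10.5 CPM, a ratio of 4.32 (3.93 to 4.75), and lower in mgR-LOS, at 26.1 CPM and 0.577 (0.542 to 0.615). *Angpt2*, the angiopoietin that opposes *Angpt1* at the Tie2 receptor, was higher in fibroblast-like cells, at 83.6 against 17.2 CPM, a ratio of 4.85 (4.28 to 5.51). It was lower in lymphatic EC-like cells, at 0.213 (0.0851 to 0.527), and gave 0 UMIs in WT and 28 in mgR in luminal EC-like cells. *Angpt1* was higher in fibroblast-like cells of mgR-LOS, at 1.59-fold (1.43 to 1.76) over mgR. *Esm1*, a gene of endothelial tip cells, gave 1 UMI in WT fibroblast-like cells and 352 in mgR, a ratio of 167 with an interval from 29.7 upward. *Apln*, another tip cell gene, was lower in capillary EC-like cells, at 50.4 CPM in mgR against 332 CPM in WT, a ratio of 0.152 (0.0686 to 0.314), from 11 and 29 UMIs, in the same gate in which *Flt1* was lower.

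Of the signaling genes below the receptors, none of 11 passed in SMC-like or in fibroblast-like cells in either comparison. All genes past the limit there were between 7.24% and 11.1%. In EC-like cells 1 of 13 passed in mgR over WT, beside 10.9% of all genes. It was *Dab2*, an endocytic adaptor, higher at 2.03-fold (1.6 to 2.6). In capillary EC-like cells *Ptprb*, which codes for the endothelial phosphatase VE-PTP, stood at 983, 582 and 1174 CPM in WT, mgR and mgR-LOS, with ratios of 0.592 (0.447 to 0.788) and 2.02 (1.6 to 2.54). *Ptprb* and *Flt1* were thus both lowest in mgR in this gate, while their order of WT and mgR-LOS differed. Of 6 signaling genes tested in this gate for mgR over WT, *Ptprb* was the 1 that was lower, and 2 were higher. All genes past the limit there were 10.7%. For mgR-LOS over mgR, 2 of 7 were higher and 0 lower, beside 11.2% of all genes. *Prkca* and *Sh2d2a* passed in T or NK cell-like cells, lower in mgR-LOS at 0.465 (0.302 to 0.699) and 0.473 (0.340 to 0.647). In luminal EC-like cells the nitric oxide synthase gene *Nos3* stood at 115 CPM in mgR and 197 CPM in mgR-LOS, a ratio of 1.71 (1.28 to 2.29), and the ephrin gene *Efnb2* at 174 and 338 CPM in WT and mgR, a ratio of 1.94 (1.44 to 2.65). These last 2 genes were chosen after their values were seen. Of 10 signaling genes tested in luminal EC-like cells, 2 were higher and 0 lower for mgR over WT, beside 10.5% of all genes past the limit. For mgR-LOS over mgR, 2 of 10 were higher and 2 lower, beside 13.9% of all genes.

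The genes whose levels followed each member most closely were found over 26 points, each a class or EC gate in 1 library with at least 20 barcodes, by Pearson's r of log2(CPM + 1). The points share libraries, and EC-like cells appear both as a class and in gates. For *Flt4* they were *Spns2*, *Klhl4* and *Podxl* (r = 0.965, 0.928 and 0.907), and for *Kdr* they were *Unc45b*, *Ifi44* and *Spns2* (r = 0.916, 0.915 and 0.903). *Kdr* and *Flt4* had an r of 0.894 with each other. For *Flt1* they were *Zfp979*, *Samd5* and *Ccdc28b* (r = 0.890, 0.832 and 0.819), and for *Nrp1* they were *Tmcc3*, *Vcam1* and *Kitl* (r = 0.900, 0.782 and 0.775). For *Nrp2* they were *Nckipsd*, *Prag1* and *Fscn1*, with r between 0.776 and 0.784. For the ligands the highest r was 0.804 for *Vegfa* (*Gla*, then *1600014C10Rik* and *Thbs1*), 0.857 for *Vegfb* (*Map2k5*, then *Dnajc19* and *Tmem60*), 0.806 for *Vegfc* (*Rgma*, then *Slc2a10* and *Epha4*) and 0.822 for *Pgf* (*Dtx1* and *Pcdhb16*, then *Ttc4*). *Vegfa* and *Vegfb* had an r of -0.464 with each other. Some of the named genes peaked near the 20 CPM floor in a small EC gate, so their r rests on few UMIs. *Pcdhb16* and *Nckipsd* peaked at 21.6 CPM in lymphatic EC-like cells of WT. *Slc2a10* peaked at 23.5 CPM in luminal EC-like cells of mgR. *Rgma* and *Samd5* peaked in capillary EC-like cells, at 30.1 CPM in mgR-LOS and 32.1 CPM in mgR. No r was tested.

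The other members lie at chr17:46016993-46032369 on the minus strand (*Vegfa*), chr19:6982473-6987651 on the minus strand (*Vegfb*), chr8:54077606-54187096 on the plus strand (*Vegfc*), chr12:85166635-85177790 on the minus strand (*Pgf*), chr11:49609263-49652739 on the plus strand (*Flt4*), chr8:128358604-128503363 on the plus strand (*Nrp1*) and chr1:62703285-62818695 on the plus strand (*Nrp2*) of GRCm38. Each value above is for the gene as a whole, since the counts do not separate its isoforms, such as soluble and membrane-bound *Flt1*.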

How the data were processed

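Single-cell RNA-seq of pooled ascending aortas gave 1 library per group (WT, mgR and mgR-LOS). The authors deposited whole-number UMI counts per gene and barcode for 32285 genes, made with Cell Ranger per the file headers (5.0.1 for WT and mgR, 6.0.1 for mgR-LOS) on the mm10 mouse genome build. The submitters' processing notes name version 6.0.1 for all 3. All 9 members, the gene lists and the markers were chosen with earlier results of these data known.

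The filter kept barcodes in which 600 to 5000 genes were detected and no more than 10% of UMIs were mitochondrial. Kept barcodes were integrated and clustered with Seurat 5.3.0 in R 4.3.3 (2000 variable genes without the members and *Fbn1*, 30 dimensions, resolution 0.5). A cluster was named where at least 3 markers and 50% of a list were raised, limits set after the clusters were seen. Doublets were scored against artificial doublets and kept. EC-like barcodes were gated by the share of each marker list detected (at least 2 markers and a lead of 0.15). This rule and lead were chosen after members' levels had been seen, and 4 gate settings were tried. UMIs were summed per class and library with Python 3.11.15 and scipy 1.17.1. Levels have exact Poisson, shares Clopper-Pearson and ratios exact conditional binomial intervals at 95%, which cover counting error only, and the floor of a count of 0 is 3 counts. A gene with at least 10 CPM in either library and 20 UMIs in both passed at 1.5-fold with an interval that left out 1. Libraries were compared where both had at least 10 barcodes of a class. Shares were thinned to 1000 UMIs per barcode, and shallower barcodes were left out. The ratio step was tested on simulated data.

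Named genes were the members, *Fbn1*, up to 4 genes past the limit with the greatest ratio in each of the pathway lists, and the 3 genes most alike to each member. Genes named outside this rule are *Nos3* and *Efnb2*, and the marker or leading genes of gates and clusters. Promoters came from a RefSeq table on GRCm38.p6, in which all 9 members were found, and gene positions from GENCODE vM21. Protein sequences were not analysed here.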

Additional observations from a re-analysis of the deposited data

Results flagged for a closer look

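Past the 1.5-fold limit, *Vegfa* had opposite directions between classes for mgR over WT: 2.16 in SMC-like cells, 3.50 in macrophage-like cells and 0.299 in T or NK cell-like cells. For mgR-LOS over mgR, *Vegfb* had opposite directions too, at 1.78 in EC-like cells and 0.362 in the *Dct* cluster, which melanocyte genes lead. With 1 library per group, neither difference between classes was tested. The T or NK cell-like value rests on 17 UMIs in WT and 30 in mgR, and the *Dct* cluster value on 17 UMIs in mgR and 6 in mgR-LOS.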

How the results depend on the processing

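No paired analysis was possible because each group is 1 library, and leaving out a library was not possible for the same reason. Under the 17 alternatives no called ratio changed direction past the limit. An uncalled ratio did pass in both directions, lymphatic *Flt1* for mgR-LOS over mgR. It was lower with at least 200 genes, at 0.374, and higher with EC clusters in place of the gate, at 1.73. The number of members past the limit for mgR over WT went from 3 to 1 in SMC-like, from 2 to 1 in fibroblast-like, from 3 to 1 in EC-like and from 2 to 1 in macrophage-like cells with a limit of 2-fold, and to 5 in SMC-like cells with no minimum level. In macrophage-like cells it was 1 with at most 5% mitochondrial UMIs, with classes by highest marker list and with barcodes counting equally, and 0 at resolution 1.0. For mgR-LOS over mgR, SMC-like cells went from 1 to 2 with CPM that leave out mitochondrial, ribosomal protein and globin genes, to 3 with no minimum and to 0 at 2-fold. Fibroblast-like cells went from 0 to 1 with at least 200 genes, by highest list and at resolution 1.0, EC-like cells from 6 to 3 with at most 5% mitochondrial UMIs and with barcodes counting equally and to 0 at 2-fold, and macrophage-like cells from 1 to 3 with no minimum. The number of member and library pairs highest in luminal among the 3 EC gates went from 5 to 3 with EC clusters. The cause of these moves was not tested, except that a stricter limit or no minimum changes the count by its own construction.

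Leaving aside the 2-fold limit, 16 of 27 called ratios lost the call in at least 1 alternative, where barcodes counting equally were judged by fold alone. In turn, 19 uncalled ratios gained a call in at least 1 alternative. Among them for mgR over WT were EC-like *Kdr*, at 1.90 with at least 200 genes, and SMC-like *Flt1*, at 1.505 without integration and at resolution 1.0. *Vegfa* for mgR over WT in SMC-like cells ranged from 1.80 to 2.22, and *Nrp1* in fibroblast-like cells from 1.79 to 1.91. *Vegfa* in macrophage-like cells ranged from 1.41 to 7.25. Luminal *Kdr* for mgR over WT ranged from 0.836 to 2.76, and luminal *Nrp1* for mgR-LOS over mgR from 1.83 to 3.02. The 3 gate alternatives had been added after seeing the data, and the gate on the number of markers gave a luminal *Kdr* level of 41.9 CPM and an *Flt1* level of 228 CPM in WT. Of 540 EC levels 46 moved by more than their interval. With classes weighted equally 97 shares of UMIs moved and 11 did not. Shares of barcodes with a UMI rise with depth: thinned to 2000 UMIs 89 moved and 100 did not, and unthinned 147 moved and 42 did not. Counts of 0 to 40 UMIs in luminal, capillary and lymphatic EC-like cells limit what could be seen of ligands there.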
